A study of Mus musculus with 30 samples.

Results

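The anterior second heart field (aSHF) is the pharyngeal mesoderm behind the heart tube that feeds progenitors into its outflow end. Its transcriptome was measured on 8 mRNA arrays of mouse embryos, 4 mutant and 4 wild-type, out of 30 arrays in the whole series. These 8 arrays were chosen by their labels alone, and 20842 genes with a name and a probe set of their own were compared, 321 of them miRNA genes and 19852 protein-coding. Embryos of both genotypes were at embryonic day 9.5 and had 19 to 21 pairs of somites. Wild-type embryos were Dgcr8 f/+ with no Cre. Mutant embryos were Dgcr8 f/f and Mef2c-AHF-Cre/+, with a transgene whose Cre acts in this field and in cells derived from it, and cells of other lineages in the dissected piece are not its target. Each array held RNA of tissue pooled by genotype over at least 5 litters, and a pool hides the spread between embryos. The comparison asks what the loss of Dgcr8 in these progenitors does to their RNA.

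Most miRNAs begin as a hairpin inside a long primary transcript. Drosha and its RNA-binding partner Dgcr8 form the Microprocessor, which cuts the hairpin out in the nucleus, and Dicer then trims it to the mature miRNA. A probe set for a miRNA gene on a whole-transcript array has labelled cDNA of long RNA to bind, whereas the mature miRNA is read on a separate miRNA array. A few miRNAs bypass the Microprocessor, among them miR-320 and miR-484.

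In mutant aSHF, RNA from miRNA genes rose, and no protein-coding gene passed the test. By limma, 37 genes passed an adjusted p of 0.05, which is 0.178% of the genes tested, and all 37 were higher in mutants. They were 36 miRNA genes and Mirg, a long noncoding RNA that carries miRNA hairpins. Their changes ran from 0.34 to 2.13 on the log2 scale, and for the 36 miRNA genes the median was 0.91, with 15 of them above 1. Of the 19852 protein-coding genes 455 had an unadjusted p under 0.05, where 2.66% of all genes tested did. Among the genes tested here, the authors' deposited table holds 18 of the 37 at an adjusted p under 0.05, and no others. A fit and adjustment over all 35556 probe sets, rather than the 20842 named genes, also gave 18 calls, all among the 37.

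**Figure D1:**
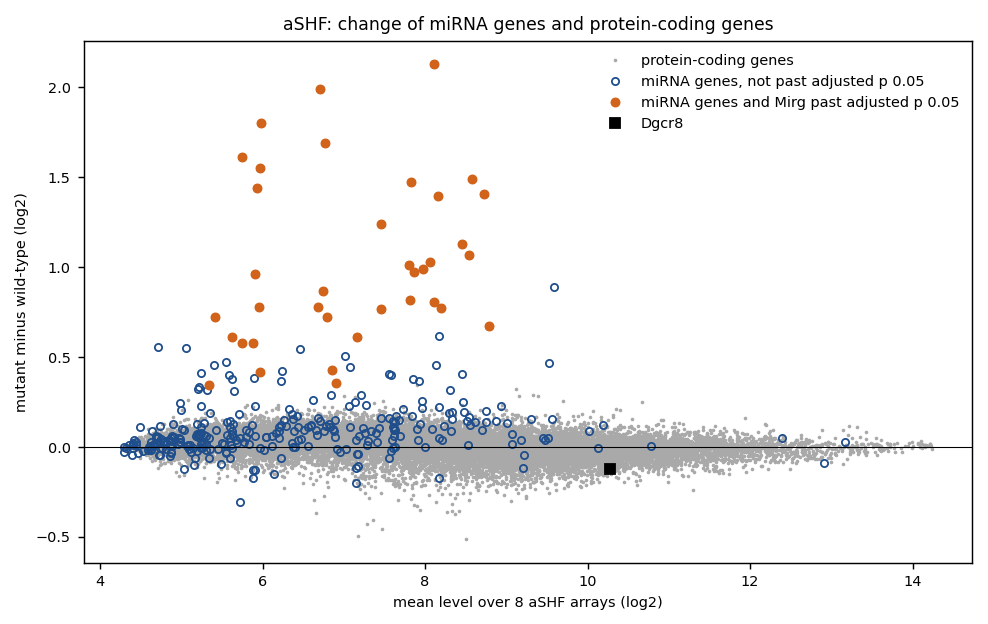
Each point is one gene, placed by its mean RMA level over the 8 aSHF arrays (log2, x axis) and by its mutant minus wild-type difference (log2, y axis). Protein-coding genes (grey) stayed between -0.51 and 0.34. The 36 miRNA genes and Mirg called by adjusted p (filled orange) lay between 0.34 and 2.13, and Dgcr8 is the black square at -0.12.

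The largest rise belonged to the miR-17-92 cluster, a polycistron of 6 hairpins on chromosome 14 known for promoting proliferation of progenitors in heart and lung. The hairpins are shown because neighbouring members of this one transcript gave different values. Sequences are RefSeq's on GRCm38.p6, plus strand, 5′ to 3′, and the annotated mature arms are in capitals.
Mir17, chr14:115043671-115043754: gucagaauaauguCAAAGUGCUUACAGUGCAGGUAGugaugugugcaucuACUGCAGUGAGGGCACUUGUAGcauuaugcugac
Mir18, chr14:115043851-115043946: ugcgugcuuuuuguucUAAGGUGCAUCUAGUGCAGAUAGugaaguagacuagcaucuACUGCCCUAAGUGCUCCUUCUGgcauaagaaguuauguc
Mir19a, chr14:115044000-115044081: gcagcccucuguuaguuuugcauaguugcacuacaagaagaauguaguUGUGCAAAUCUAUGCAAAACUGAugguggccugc
Mir20a, chr14:115044157-115044263: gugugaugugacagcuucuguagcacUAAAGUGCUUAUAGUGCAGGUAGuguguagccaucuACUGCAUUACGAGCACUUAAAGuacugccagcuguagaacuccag
Mir19b-1, chr14:115044305-115044391: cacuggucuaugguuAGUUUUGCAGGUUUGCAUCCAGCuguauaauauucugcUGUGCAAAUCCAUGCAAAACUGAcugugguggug
Mir92-1, chr14:115044427-115044506: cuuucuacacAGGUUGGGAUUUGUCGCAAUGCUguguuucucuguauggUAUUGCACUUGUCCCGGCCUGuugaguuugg

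Values of these genes are RMA levels on the log2 scale, in the order of replicates 1 to 4. Mir19b-1 stood at 6.80, 7.27, 7.06 and 7.04 on the wild-type arrays and at 9.20, 8.97, 9.11 and 9.40 on the mutant arrays. The lowest mutant pool thus lay well above the highest wild-type pool, and the limma change was 2.13 (SE 0.11, adjusted p = 1.42e-05), or 4.37-fold. Mir20a read 5.77, 6.05, 5.92 and 5.96 in wild-type pools against 7.78, 7.38, 7.46 and 7.85 in mutant pools, a rise of 1.69 (SE 0.11, adjusted p = 6.50e-05 by limma). For Mir17 the wild-type levels were 6.88, 7.25, 7.10 and 7.10 and the mutant levels 8.73, 8.45, 8.52 and 8.52, a rise of 1.47 (SE 0.08). In all 3 genes the genotypes were clear of each other. Mir92-1 was measured at 7.85, 8.18, 7.95 and 8.13 in wild-type pools and at 9.40, 9.40, 9.42 and 9.51 in mutant pools, a rise of 1.41 (SE 0.07). Its mutant arrays were the tightest of the 4 called members, with an SD of 0.05 (n = 4). The remaining members did not pass: Mir18 was 0.89 higher (SE 0.16, adjusted p = 0.0809 by limma) and Mir19a 0.37 higher (SE 0.21, adjusted p = 0.978). These 6 genes come from one transcript, so they are not independent observations.

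**Figure D2:**
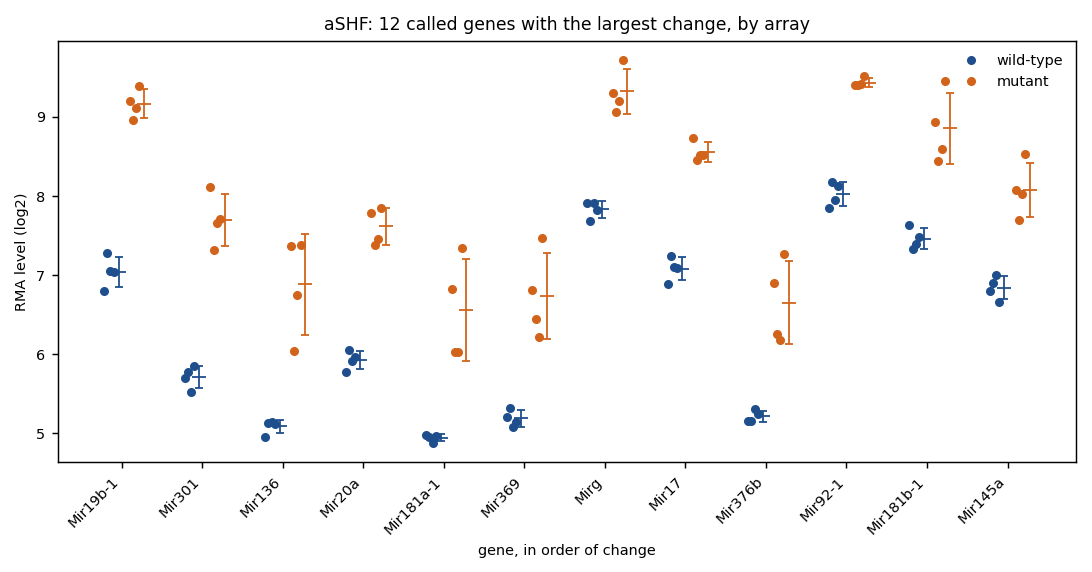
Points are single aSHF arrays (RMA level, log2, y axis) for the 12 called genes with the largest change, in order of change (x axis), wild-type in blue and mutant in orange, with a bar at the mean and whiskers of 1 SD (n = 4). In each gene all mutant points lie above all wild-type points, and the mutant points of Mir136, Mir181a-1, Mir369 and Mir376b spread most.

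Mir301 lies at chr11:87113004-87113089 on the plus strand, within the protein-coding gene Ska2, and gave the second largest rise. Its levels were 5.70, 5.78, 5.52 and 5.85 in wild-type pools and 8.11, 7.31, 7.66 and 7.71 in mutant pools. The change was 1.99 (SE 0.14, adjusted p = 1.60e-04 by limma), or 3.96-fold. Related hairpins rose too. Mir301b and Mir130b, a pair on chromosome 16, rose by 1.03 (SE 0.11) and 0.43 (SE 0.05), and Mir130a on chromosome 2 rose by 0.96 (SE 0.11).

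The 2 hairpins of the Mir181a-1 and Mir181b-1 locus on chromosome 1, a family known for tuning lymphocyte receptor signalling, both rose. Mir181a-1 read 4.98, 4.95, 4.88 and 4.97 in wild-type pools and 6.83, 6.03, 6.03 and 7.34 in mutant pools, a rise of 1.61 (SE 0.25, adjusted p = 0.0369 by limma). Mir181b-1 read 7.63, 7.33, 7.40 and 7.49 against 8.93, 8.44, 8.60 and 9.46, a rise of 1.40 (SE 0.18). Mutant replicates 1 and 4 were the high pools in both genes, and the groups did not overlap in either. At the second locus of the family, on chromosome 8, Mir181c rose by 0.67 (SE 0.09), while its neighbour Mir181d was 0.14 higher (SE 0.11) and did not pass.

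A further locus, on chromosome 18, encodes Mir145a and Mir143, known as regulators of smooth muscle. Mir145a read 6.79, 6.90, 7.0 and 6.66 in wild-type pools and 8.08, 7.70, 8.02 and 8.53 in mutant pools, a rise of 1.24 (SE 0.15, adjusted p = 0.00567 by limma). Mir143 rose by 0.80 (SE 0.11). Both genes of the Mir296 and Mir298 locus on chromosome 2 rose, by 1.07 (SE 0.11) and 0.72 (SE 0.07), as did both of Mir30b and Mir30d on chromosome 15, by 0.78 (SE 0.10) and 0.97 (SE 0.10). Mir30a on chromosome 1 rose by 0.87 (SE 0.09), Mir22 on chromosome 11 by 0.61 (SE 0.09) and Mir335, inside the imprinted gene Mest on chromosome 6, by 0.36 (SE 0.06). Mir16-1 on chromosome 14 rose by 0.42 (SE 0.05), and its neighbour Mir15a was 0.20 higher (SE 0.11) without passing. In the fit of 4 groups, which shares the spread of both tissues, Mir16-1 missed the threshold (adjusted p = 0.472 by limma).

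The X chromosome holds 2 clusters in which neighbours differed. In the cluster of Mir322, Mir503 and Mir351, known from muscle differentiation and cell cycle arrest, those 3 genes rose by 0.58 (SE 0.06), 0.77 (SE 0.09) and 1.13 (SE 0.10). The other 4 hairpins there, Mir542, Mir450-1, Mir450-2 and Mir450b, lay between -0.01 and 0.13 and did not pass. In the paralog of miR-17-92, Mir20b rose by 0.34 (SE 0.05), and Mir106a, Mir19b-2, Mir92-2 and Mir363 were 0.32, 0.41, 0.23 and 0.14 higher without passing.

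**Figure D3:**
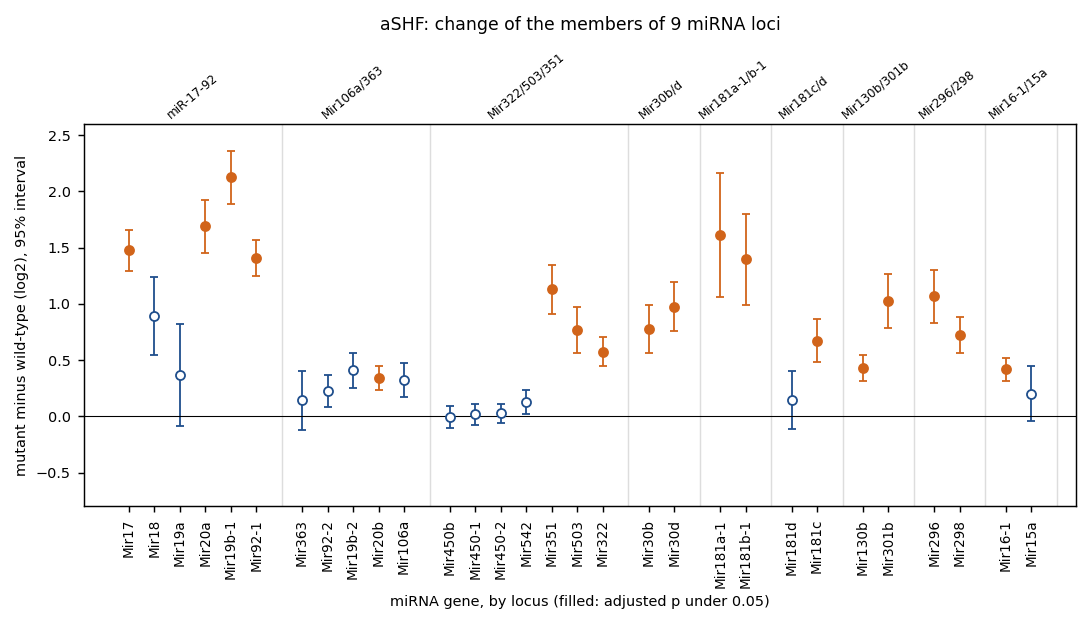
Points are the mutant minus wild-type difference in aSHF (log2, y axis) of each miRNA gene of 9 loci, with 95% intervals from limma (n = 4 arrays a group), filled where the adjusted p was under 0.05. In miR-17-92 the called members lie between 1.41 and 2.13, and in the Mir322 locus 4 hairpins lie at 0.13 or below while 3 lie at 0.58 or above.

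The imprinted Dlk1-Dio3 region on chromosome 12, which expresses its noncoding RNAs from the maternal chromosome, held 41 of the measured miRNA genes. Of these 41, 11 passed, beside 36 of all 321 miRNA genes. Higher in mutants were 38 of the 41, beside 81.0% of all miRNA genes. The median change was 0.38 against 0.09 for all miRNA genes and 0.01 for all genes. Neighbouring hairpins on one strand may share a transcript, so the 41 are not independent observations. Mir136 was the region's largest rise. It read 4.96, 5.13, 5.14 and 5.11 in wild-type pools and 7.37, 6.04, 6.75 and 7.39 in mutant pools, a rise of 1.80 (SE 0.25, adjusted p = 0.0172 by limma). Mutant replicate 2 was its lowest mutant pool and was still clear of the wild-type pools. Mir369 read 5.21, 5.32, 5.08 and 5.14 against 6.81, 6.44, 6.22 and 7.47, a rise of 1.55 (SE 0.22). Mir376b read 5.15, 5.16, 5.31 and 5.24 against 6.91, 6.25, 6.18 and 7.27, a rise of 1.44 (SE 0.21). Mutant replicates 1 and 4 were the 2 highest pools for both, as they were for Mir181a-1. Mirg, the long noncoding RNA in which Mir412 and Mir369 lie, read 7.92, 7.68, 7.91 and 7.82 in wild-type pools and 9.31, 9.06, 9.20 and 9.72 in mutant pools, a rise of 1.49 (SE 0.12, adjusted p = 5.50e-04 by limma).

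The other 8 called genes of the region rose by 0.58 to 1.01. These were Mir382, Mir127, Mir485, Mir300, Mir433, Mir434, Mir543 and Mir412. Within 10 kb steps on one strand they fell into a proximal group, with 4 of 8 called (Mir433, Mir127, Mir434 and Mir136), and a distal group, with 7 of 30 called. In the distal group uncalled neighbours reached 0.56 (Mir376a), 0.55 (Mir495 and Mir409), 0.47 (Mir541 and Mir134) and lay at 0.01 for Mir376c. Mir539 at -0.17 (SE 0.06), Mir381 at -0.06 and Mir299a at -0.01 were the 3 that were lower.

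Several of the called genes make mature miRNAs that share a seed, the stretch of bases 2 to 8 through which a miRNA pairs with its targets. Mature sequences from RefSeq were used for 32 of the 36 called miRNA genes, without Mir30b, Mir30d, Mir143 and Mir145a. The families are shown because the calls spread over paralogs on different chromosomes. They are not complete, since only called genes were placed, and called genes with no sequence used here were left out. Mir30a is therefore not shown with Mir30b and Mir30d, and for Mir301b only the 5p arm was held. The seed is in capitals.
miR-17-5p: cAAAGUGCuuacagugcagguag
miR-20a-5p: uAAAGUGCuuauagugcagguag
miR-20b-5p: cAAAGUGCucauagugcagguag
miR-130a-3p: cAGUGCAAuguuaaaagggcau
miR-130b-3p: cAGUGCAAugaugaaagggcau
miR-301a-3p: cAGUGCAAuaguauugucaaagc
miR-181a-5p: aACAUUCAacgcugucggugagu
miR-181b-5p: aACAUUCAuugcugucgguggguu
miR-181c-5p: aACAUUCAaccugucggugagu
miR-16-5p: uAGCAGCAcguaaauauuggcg
miR-322-5p: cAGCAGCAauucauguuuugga

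The first seed came from Mir17 and Mir20a on chromosome 14 and Mir20b on X. The second came from chromosomes 2, 16 and 11, the third from chromosomes 1 and 8, and the last from chromosome 14 and X. Within a family the rises were unequal: Mir20a rose by 1.69 and Mir20b by 0.34, and Mir301 rose by 1.99 and Mir130b by 0.43. These are changes of separate probe sets, whose response to a given amount of RNA need not be the same.

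No called gene had overlapping genotypes, which follows from their choice by p on the same arrays. Over all 20842 genes 1.62% were without overlap. Over the 36 called miRNA genes, the mean level was 6.48 to 6.61 on the wild-type arrays and 7.37 to 7.77 on the mutant arrays. Mutant replicate 4 was the highest mutant pool for 26 of the 36 and mutant replicate 2 the lowest for 16. Without wild-type replicate 4 the count of 37 fell to 19, and without wild-type replicate 3 to 21. Without mutant replicate 2 it rose to 43. Why the count depended on the array left out was not tested. The 17 genes that passed with any 1 array left out were Mir19b-1, Mir92-1, Mir17, Mir20a, Mir301, Mirg, Mir351, Mir30a, Mir30d, Mir298, Mir296, Mir322, Mir301b, Mir382, Mir127, Mir16-1 and Mir543. The other 20, among them Mir136, Mir181a-1, Mir369, Mir376b and Mir145a, missed the threshold without at least 1 array, and no change turned its sign.

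The miRNA genes that did not pass were mostly higher as well. Of 284 such genes with a position in RefSeq, 224 were higher in mutants, with a median of 0.06, and 46 were higher against 3 lower at an unadjusted p under 0.05. Over all genes tested 1.52% were higher and 1.14% lower at that p. The let-7 genes, whose mature miRNAs accumulate as embryonic cells differentiate, were higher in 11 of 12 cases (median 0.12), none past the adjusted p. Mirlet7e was 0.46 higher (SE 0.09), Mirlet7d 0.40 (SE 0.09), Mirlet7a-1 0.37 (SE 0.06) and Mirlet7g 0.18 (SE 0.05). Of 8 muscle miRNA genes 6 were higher (median 0.05), with Mir133a-2 at 0.23 (SE 0.04, adjusted p = 0.141 by limma). The 2 Microprocessor-independent genes on the array, Mir320 and Mir484, were 0.13 higher (SE 0.11) and 0.05 higher (SE 0.05), and their wild-type and mutant arrays overlapped. Their median of 0.09 was not below the 0.09 of all 321 miRNA genes, of which only 20.9% were without overlap. These 2 genes thus did not stand apart from miRNA genes in general.

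Of the measured transcripts that house called miRNA genes, Mirg alone passed. Ska2, a spindle and kinetochore protein gene around Mir301, stood at 12.09 ± 0.05 (SD, n = 4) in wild-type pools and 12.02 ± 0.08 in mutant pools, a difference of -0.07 (SE 0.05). Mest, around Mir335, stood at 13.56 ± 0.01 and 13.53 ± 0.03. The gene 2610318N02Rik, around Mir130b and Mir301b, was 0.10 higher (SE 0.11), and Dleu2, the noncoding host of Mir16-1, was 0.01 lower (SE 0.07). Dleu2 was dim, at 4.68 in wild-type and 4.66 in mutant pools, where the median wild-type level of all genes was 7.88. None of these 4 passed, and their groups overlapped. Of 36 host transcripts of miRNAs on a list of hosts, called or not, Mirg was again the only call, and 13 were higher and 23 lower, with a median of -0.02.

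By annotated position, 26 of 171 miRNA genes for which no same-strand host gene was found passed (15.2%). The shares were 6 of 55 inside long noncoding genes (10.9%) and 4 of 94 inside protein-coding genes (4.26%). These shares count cluster members singly and depend on the annotation. In miR-17-92, Mir92-1 was placed inside the long noncoding gene Mir17hg, and Mir17, Mir20a and Mir19b-1 in no host. A single transcript was thus split between classes. Split by the separate miRNA arrays of aSHF, 31 of 134 miRNA genes whose mature miRNA was above array background passed (23.1%), and 5 of 186 whose mature miRNA was not above it (2.69%). The background was set at the 95th percentile of 95 control probe sets.

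The mature miRNAs were compared on 4 mutant and 4 wild-type miRNA arrays of aSHF, and whether these shared pools with the mRNA arrays is not stated. Of 1908 mature miRNAs none passed by limma (0%), and 114 had an unadjusted p under 0.05 (5.97%). Of the 31 matures above background that belong to called genes, 29 were lower in mutants, with a median of -0.20 and a range from -1.12 to 0.13. Over all 293 matures above background 164 were lower and the median was -0.06. The matures of miR-17-92 were at 12.37 ± 0.07 against 12.23 ± 0.09 for miR-17-5p (SD, n = 4), and at 9.15 ± 0.04 against 9.13 ± 0.12 for miR-19b-3p. While Mir19b-1 rose 4.37-fold on the mRNA arrays, miR-19b-3p thus differed by -0.02 (SE 0.08). A mature miRNA made from several genes, as miR-19b-3p is from Mir19b-1 and Mir19b-2, is read as a single value. Such a value does not belong to the called gene alone. Lower values were read for miR-301a-3p at -1.12 (SE 0.54), miR-143-3p at -0.69 (SE 0.20), miR-145a-5p at -0.50 (SE 0.09) and miR-181b-5p at -0.35 (SE 0.07), with the lowest adjusted p at 0.170.

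The called genes were then set beside OFT-RV, the dissected outflow tract together with the right ventricle and the part of the heart tube that receives descendants of the aSHF, from 4 mutant and 4 wild-type arrays of the same genotypes and stage. The 2 tissues appear to have been normalised apart, so only changes within a tissue were set side by side, and levels were not. In OFT-RV 93 genes passed (0.446%), among them 34 of the 36 miRNA genes. Mir20b and Mir434 were 0.10 and 0.23 higher there without passing. A limma fit of all 4 groups tested the difference between the changes themselves, and 44 genes passed (0.211%). Of the 36 miRNA genes, 16 had a larger rise in OFT-RV and none a smaller one, and for 20 no difference was shown. Mir30d rose by 0.97 in aSHF and 5.07 in OFT-RV, a difference of 4.09 (SE 0.15, adjusted p = 1.94e-11). Mir322 rose by 0.58 and 3.08, and Mir20a by 1.69 and 4.34. In contrast, Mir127 was 0.99 and 0.97 higher and Mir296 1.07 and 0.81 higher, with no tested difference.

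**Figure D4:**
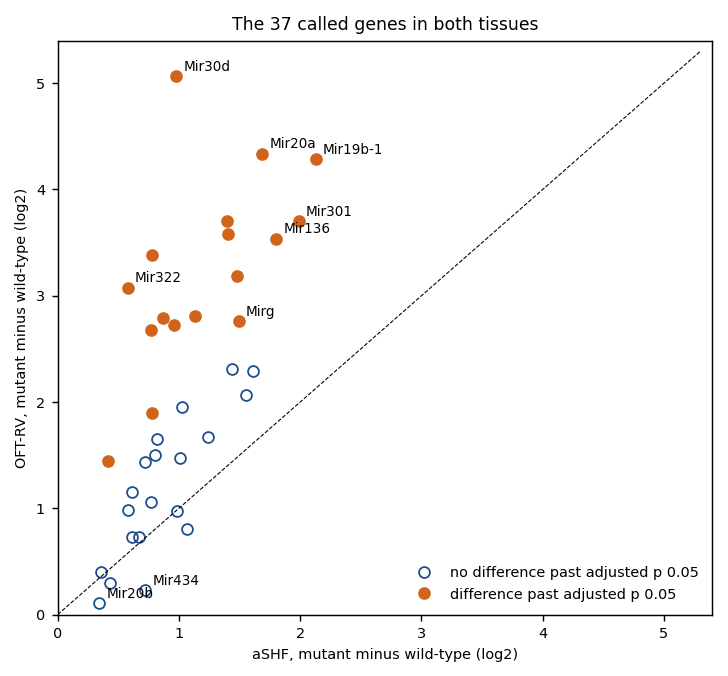
Each of the 37 genes called in aSHF is placed by its mutant minus wild-type difference in aSHF (log2, x axis) and in OFT-RV (log2, y axis), filled where the difference between the tissues had an adjusted p under 0.05, with a dashed line of equal change. Filled genes all lie above the line, Mir30d highest at 0.97 and 5.07, and Mir20b and Mir434 lie below it.

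Dgcr8 itself was read at 10.27, 10.36, 10.33 and 10.41 in wild-type aSHF and at 10.18, 10.27, 10.17 and 10.25 in mutant aSHF. Mutant replicate 2 lay just above the lowest wild-type pool, so the groups overlapped. The difference was -0.12 (SE 0.05, adjusted p = 0.978 by limma), and an exact two-sided permutation test over the arrays gave p = 0.0571, where 0.0286 is the smallest it can give. The place of its probe set relative to the deleted part is not known here, so this reading checks the labels only weakly. In pooled tissue, fewer cells of a type and less RNA per cell cannot be told apart. Among 20 measured genes of the miRNA machinery none passed, and Lin28a, which blocks let-7 maturation, was 0.13 higher (SE 0.05).

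Of 19852 protein-coding genes, 1 differed by more than 0.5 on the log2 scale in either direction, against 38 of all 321 miRNA genes. Differences of coding genes ran from -0.51 to 0.34 with a median of 0.01, and 227 were higher and 228 lower at an unadjusted p under 0.05. Groups were without overlap for 261 of them (1.31%). The median 95% interval reached 0.13 either side of its estimate, and 99.6% of the intervals stayed within 0.5 of no change on the log2 scale. Over the alternatives tried with 20842 genes, 379 to 3494 genes of all types had an unadjusted p under 0.05. With dim probe sets left out, 328 of 11648 did.

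Of the 10 coding genes with the smallest p among the lower ones, Car3, which encodes a cytosolic carbonic anhydrase, came first. It read 8.81, 8.61, 8.98 and 8.64 in wild-type pools and 8.37, 7.97, 8.34 and 8.32 in mutant pools. These groups did not overlap, and the difference was -0.51 (SE 0.10, adjusted p = 0.215 by limma). Barx1, a homeobox gene of pharyngeal and stomach mesenchyme, read 9.18, 9.21, 9.26 and 9.20 against 8.93, 8.90, 8.72 and 9.10, a difference of -0.30 (SE 0.07, adjusted p = 0.560 by limma). Gja5, the gap junction gene connexin 40 of arteries and conducting muscle, differed by -0.23 (SE 0.05). Brachyury, listed as T and known from nascent mesoderm and notochord, differed by -0.27 (SE 0.07). The others were Smim10l1 at -0.33, Pqlc3 at -0.28, the granule proteoglycan Srgn at -0.22, the zinc finger gene Zfp780b at -0.21, the class I histocompatibility gene H2-K1 at -0.17 and the centromere chaperone Hjurp at -0.16.

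Among the higher ones, Fgf8, a growth factor that second heart field cells both make and need, read 9.16, 9.35, 9.23 and 9.0 in wild-type pools and 9.42, 9.63, 9.34 and 9.51 in mutant pools. The groups touched, since mutant replicate 3 lay below wild-type replicate 2, and the difference was 0.29 (SE 0.08, adjusted p = 0.978 by limma). Ovol1, a zinc finger factor of epithelia, was 0.28 higher (SE 0.07), and Ifi208, of the interferon-activated family, 0.26 higher (SE 0.08). Plxna4, a semaphorin receptor, was 0.20 higher (SE 0.06), and Cyp26b1, an enzyme that breaks down retinoic acid, 0.18 higher (SE 0.05). Others were the olfactory receptor Olfr485 at 0.23, the nuclear membrane gene Sun2 at 0.16, Fam198a at 0.15 and the ciliary transport gene Ift27 at 0.13. None of these genes passed. With limma's array weights 5 of the named coding genes did, Car3 (adjusted p = 0.0194), Ovol1 (0.0317), Gja5 (0.0388), Ifi208 (0.0388) and Barx1 (0.0496).

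Gene lists for the tissue gave no call in either direction. The 28 genes of second heart field progenitors had a median of 0.02, with 18 higher and 10 lower, beside 57.9% higher and a median of 0.01 over all genes. Of the defining markers, Isl1 stood at 10.40 and 10.38 in wild-type and mutant pools, Tbx1 at 10.69 and 10.81 and Fgf10 at 8.81 and 8.87, above the median gene of each array (7.85 to 7.92) in both genotypes, although levels of different probe sets share no exact scale. Wnt11 was 0.17 higher (SE 0.08). In the FGF response list 14 of 19 were higher (median 0.06), with Dusp4 at 0.15, Etv5 at 0.12 and Spry2 at 0.08, feedback genes of the pathway. The immediate early list had 20 of 23 higher (median 0.06), with Egr3 at 0.19, Egr1 at 0.15 and Junb at 0.14.

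For signals that pattern this mesoderm, the retinoic acid list had 12 of 18 higher (median 0.00). Its catabolic enzymes Cyp26b1 and Cyp26a1 were at 0.18 (SE 0.05) and -0.15 (SE 0.07), and neither passed. The list for BMP, Wnt and Notch signalling had 26 genes, of which 13 were higher and 13 lower (median -0.01), with the Notch modifier Lfng at 0.18 (SE 0.06), the Wnt target Sp5 at 0.22 (SE 0.08) and Bmp2 at -0.14 (SE 0.07). Of 39 Hox genes 29 were higher (median 0.04), and Hoxb4 was -0.22 (SE 0.08). Cell cycle genes were higher in 10 of 26 (median -0.01), p53 targets and apoptosis genes in 11 of 25 (median -0.01), and matrix and cushion genes in 6 of 20 (median -0.03). Replication-dependent histone genes were higher in 25 of 32 (median 0.01).

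Textbook targets of let-7, and of miR-17 and miR-302 together, gave no call. No let-7 gene had itself passed, and targets of the other called miRNA families were not listed. The list of let-7 targets had 8 of 20 higher (median 0.00), with Nr6a1 at 0.20 (SE 0.08), Lin28a at 0.13 and Trim71 at 0.11 (SE 0.07). The list of miR-17 and miR-302 targets had 8 of 24 higher (median -0.02), with its members between -0.12 and 0.11.

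Markers of other cell types in the dissected piece were read in both genotypes and none passed. Cardiomyocyte genes were lower in 20 of 26 (median -0.04), with Myh6 at -0.20 (SE 0.14), Tnnt2 at -0.10 (SE 0.13) and Myl7 at -0.04 (SE 0.20). Their mean level ran from 8.50 to 8.76 on wild-type arrays and from 8.41 to 8.87 on mutant arrays, highest on mutant replicate 4. Primitive erythroid genes were higher in 14 of 14 (median 0.11), with Epb42 at 0.22, Gata1 at 0.19, Hbb-bh1 at 0.09 and Hba-x at 0.09. Their mean level ran from 9.52 to 9.90 and from 9.75 to 10.06, again highest on mutant replicate 4, the pool in which most called miRNA genes were also highest. The part of either list in the miRNA result was not tested.

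Neural genes were lower in 10 of 16 (median -0.03), with Stmn2 at -0.36 (SE 0.15), Nefl at -0.27 and Elavl3 at 0.07. In the smooth muscle list 6 of 12 were higher (median -0.02), with Tagln at -0.14, Cnn1 at -0.09 and Acta2 at -0.04. Neural crest genes were higher in 12 of 20 (median 0.02), with Sox10 at 0.11, Foxd3 at 0.10 and Tfap2b at -0.06. Endothelial genes were higher in 7 of 17 (median 0.00), with Kdr at -0.06, Pecam1 at -0.03 and Cdh5 at -0.02. Pharyngeal endoderm genes were higher in 13 of 19 (median 0.03), with Foxa2 at -0.21 (SE 0.07), Nkx2-1 at 0.01 and Epcam at -0.01. Cranial muscle progenitor genes were higher in 9 of 11 (median 0.06), with Msc at 0.06, Tcf21 at 0.02 and Myf5 at 0.01. Epicardial genes were higher in 6 of 10 (median 0.01), with Tbx18 at -0.28 (SE 0.08), Wt1 at 0.01 and Upk3b at 0.00.

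The pools differed among themselves in sex-linked genes. The Y-linked genes Ddx3y, Eif2s3y, Kdm5d and Uty averaged 5.88 on wild-type replicate 1 and 8.83 to 9.21 on the other wild-type arrays, and on mutant replicates 1 to 4 they averaged 8.97, 8.56, 6.92 and 7.04. Xist, transcribed from the inactive X, ran the other way, at 12.03 on wild-type replicate 1 and at 11.89 and 11.94 on mutant replicates 3 and 4, against 10.03 to 10.70 elsewhere. Those 4 Y-linked genes had the largest spread within a genotype of all coding genes. After them came Cxcl13, Zfp931, Hsd3b6, Tdgf1, Zfp605, Olfr767, Vsnl1 and Zfp979, whose groups all overlapped. With the Y-linked level as a covariate, an alternative chosen after seeing the data, 30 genes passed, 29 of them miRNA genes.

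**Figure D5:**
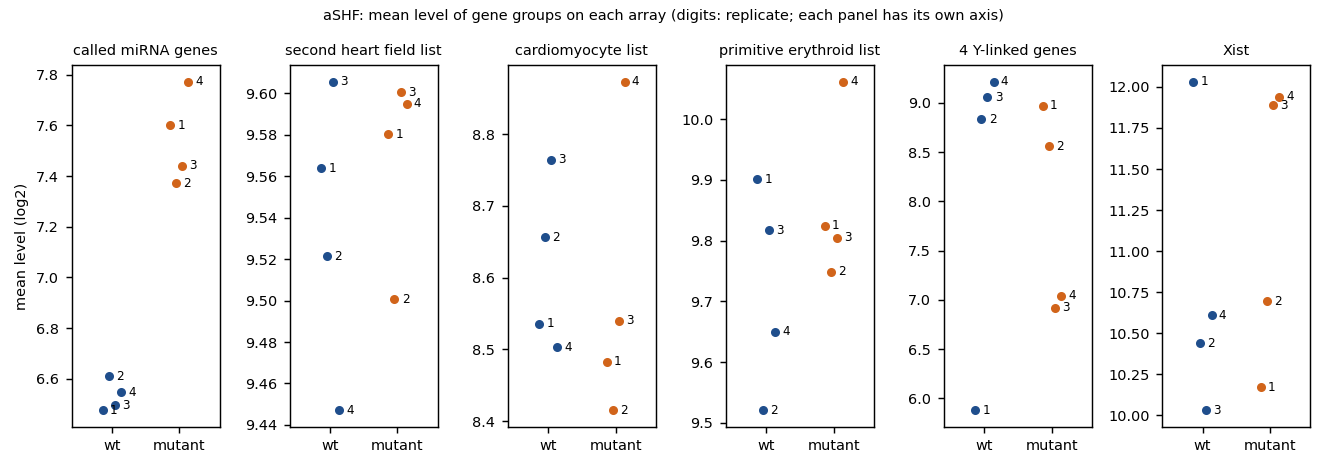
Mean level (log2, y axis, with a scale of its own in each panel) of the called miRNA genes, 3 marker lists, 4 Y-linked genes and Xist on each aSHF array, wild-type in blue (wt) and mutant in orange, with digits for the replicate. The called miRNA genes lie at 6.48 to 6.61 on wild-type and 7.37 to 7.77 on mutant arrays. That gap follows from their choice by p on these same arrays, whereas the marker lists were not chosen by p. The marker lists overlap, and the Y-linked genes are low on wild-type replicate 1 and mutant replicates 3 and 4.

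The first principal component of the 8 arrays took 46.2% of the variance and placed mutant replicate 2 and wild-type replicate 2 on one side and wild-type replicates 1 and 3 and mutant replicate 1 on the other. This first component therefore did not follow genotype. The second took 17.4% and set wild-type replicate 4 (-0.63) farthest from mutant replicate 4 (0.70). On it the other arrays lay between -0.24 and 0.17. All wild-type arrays and mutant replicate 2 (-0.04) were negative there, and the other mutant arrays were positive. Leaving out both replicate 2 arrays, also chosen after seeing the data, gave 43 called genes, 42 of them miRNA genes.

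Among the remaining noncoding types only Mirg passed. The next lincRNAs by p were Lncpint, from the p53-induced transcript's locus, at 0.18 (SE 0.06) and 2410018L13Rik at -0.18 (SE 0.06). Dnm3os, which runs antisense to Dnm3 and carries the miR-199a and miR-214 hairpins, was -0.17 (SE 0.07). The small RNA genes Rnu12, of the minor spliceosome, at 0.48 (SE 0.22) and Snord22 at -0.26 (SE 0.10) varied between pools. RNAs that no Microprocessor cuts, such as Rn7sk at -0.02 (SE 0.05) and Rmrp at 0.08 (SE 0.06), overlapped between genotypes. Over all genes only 1.62% were without overlap.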

How the data were processed

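RNA of pooled aSHF was hybridised to 8 mRNA arrays. The log2 values were made by the authors with oligo's RMA (per the submitters' processing notes), of versions not given here. Per the file headers, the authors' deposited comparison tables hold log2 changes, means and p-values. Gene names were taken from those tables by equal mean of a probe set within 1e-06 in both tissues. The aSHF changes of matched genes then differed from the authors' by 7.11e-09 at most. All 20889 listed genes matched, and 45 sharing a probe set and 2 second listings were left out. A further 4 tables with 30 value columns whose names match no sample were not used here. Genotypes were compared with limma 3.58.1 in R 4.3.3 (lmFit and eBayes), with Benjamini-Hochberg adjustment over 20842 genes, with no term for replicate number. A gene is called at an adjusted p under 0.05. SE is limma's moderated standard error and SD the spread between pools. The fit was tested on simulated data. Precision is limited by 4 arrays a group, and no batch is given in the labels.

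Called genes are named with their miRNA neighbours within 10 kb on the same strand, then the 10 coding genes of smallest p in each direction, up to 3 of each other RNA type, 4 of each list with its defining markers, and the 12 coding genes of largest spread. Some genes that this rule names are not reported here. Members and gene lists were chosen with earlier results of these data known. Of the authors' 1172 hairpin locations, 1169 equal a RefSeq gene on GRCm38.p6, whose coordinates are printed. Matures were joined to hairpins by position and strand, taking the brightest. Alternatives were leaving out each array, a replicate block, a filter on dim probe sets, 2 renormalisations, array weights, another variance prior, a fit of 4 groups and a test of all 35556 probe sets. In same-numbered pairs, deviations from the group means correlated at 0.38, 0.67, -0.08 and -0.09, so the numbers were not taken to pair the samples.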

Additional observations from a re-analysis of the deposited data

Results flagged for a closer look

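Among 71 named genes, 142 groups of 4 arrays were examined for a single array far from its group, and 13 were found. Chance gives about 1 in 20 independent groups, but these share their arrays, and 5 of the 13 come from genes named for their large spread. Mutant replicate 4 was far above its group for Mir92-1 at 9.51 (others 9.40 to 9.42), Mir485 at 8.68 (8.02 to 8.11), Mir543 at 6.14 (5.84 to 5.88), Mir412 at 6.30 (5.91 to 5.97) and Tdgf1, a Nodal co-receptor gene, at 8.49 (7.17 to 7.27). Mutant replicate 2 was far below for Car3 at 7.97 (8.32 to 8.37). Wild-type replicate 1 was far below for Uty at 5.54, Eif2s3y at 5.78, Kdm5d at 6.30 and Ddx3y at 5.89, with the other wild-type arrays between 8.16 and 9.63, and for Mir136 at 4.96 (5.11 to 5.14). Wild-type replicate 3 was far above for Mir382 at 7.53 (7.19 to 7.24), and wild-type replicate 2 for Mir503 at 7.36 (6.95 to 6.99).

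For 17 called genes the rise was larger in OFT-RV than in aSHF by the tested difference of changes (limma, adjusted p under 0.05). On the log2 scale the gap was 4.09 for Mir30d, 2.65 for Mir20a, 2.61 for Mir30b, 2.50 for Mir322, 2.31 for Mir181b-1, 2.17 for Mir92-1 and 2.16 for Mir19b-1. It was 1.92 for Mir30a, 1.91 for Mir503, 1.76 for Mir130a, 1.74 for Mir136, 1.72 for Mir301, 1.71 for Mir17 and 1.68 for Mir351. The smallest were 1.27 for Mirg, 1.12 for Mir300 and 1.02 for Mir16-1. The share of cells with active Cre in each piece was not measured.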

How the results depend on the processing

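Leaving out 1 array at a time gave 19 to 43 called genes, with 18 to 42 miRNA genes among them and 0 coding genes. The count of 37 fell to 14 (13 miRNA genes) when dim probe sets were left out, since 22 of the called miRNA genes are dimmer than the median probe set and were then not tested. It was 18 (17 miRNA genes) when all probe sets entered the fit and the adjustment, and 60 with array weights. Protein-coding calls went from 0 to 4 with a replicate block (Car3, Ovol1, Pqlc3 and T, 51 genes in all) and to 5 with array weights (Barx1, Car3, Gja5, Ifi208 and Ovol1), and the cause was not tested. Re-centring, quantile normalisation, a trended robust prior and a fit of 4 groups gave 41, 40, 42 and 45 called genes. No called gene and none of the 20 named coding genes turned its sign. Dgcr8 stayed between -0.15 and -0.10 with an adjusted p of 0.248 or more, and with the replicate block it was -0.12. Genes whose change differed between tissues numbered 44, 49 with the replicate block, 22 without dim probe sets and 36 to 44 without any 1 array. Mature miRNAs past the threshold numbered 0, and 0 to 2 without any 1 array, with 2 when mutant replicate 2 was left out. Apart from the test of all probe sets, a planned setting with all 8 arrays also ended the call of Mir16-1 (fit of 4 groups), Mir300 (quantile normalisation), Mir335 (trended robust prior) and Mir485 (dim probe sets left out). Signal over background was not examined for the mRNA arrays.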
